A study of Pyrus communis with 12 samples.

Results

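In flesh of 'Abate Fetel' pear, 63 of the 45217 genes in the count table rose at each step between 4 harvesting stages, H1, H2, H3 and H4. The 63 stayed short of a limit set on the rise at H4. They were picked from the measured values of all 12 libraries. A gene entered when its mean at H4 was at least 1 CPM (a count divided by the total of its library and multiplied by 1000000), when each stage mean was at least 1.2 times the preceding one, and when the lowest library of each stage lay above the highest of the stage before. Genes whose lowest H4 library was at least 2 times the highest of H1 to H3 were left out, a condition called the surge limit below. In the table, 23155 genes reached 1 CPM in at least 3 libraries and 21560 had an H4 mean of at least 1 CPM. The stage means stood in rising order in 2053 of the latter, every step reached 1.2 times in 199, and neighbouring stages also separated completely in 87. Of these 87, 24 were past the surge limit, which left the 63. Since these values chose the genes, their levels and the calls at each step describe them and are no independent evidence of the direction.

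'Abate Fetel' is a cultivar of the European pear, Pyrus communis. The stages are labelled as successive harvest weeks, from week 1 at H1 to week 4 at H4. Harvests were 7 days apart at H1–H2, 13 days at H2–H3 and 7 days at H3–H4. All stages were untreated fruit sampled at harvest from trees of a single orchard, and fruit were sorted non-destructively by an absorbance index for chlorophyll, so that each stage held the class of fruit most common on that date. Bulk RNA of the flesh without the skin was sequenced for 3 biological replicates per stage. How many fruits went into a replicate is not given in the sources used here, so that the p-values measure the spread between these libraries. The tissue label was not checked against marker genes. In bulk flesh, fewer cells of a type and less RNA per cell cannot be told apart.

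Pear is a climacteric fruit, whose ripening is tied to a burst of the gaseous hormone ethylene that feeds its own synthesis. ACC synthase and ACC oxidase make ethylene, receptors and transcription factors pass the signal on, and the flesh then softens through enzymes of the cell wall and gains aroma volatiles. European pears mature on the tree and usually complete ripening after picking, and many cultivars need a period of cold. The genes described here were measured in fruit still maturing on the tree.

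Library totals lay between 7776419 and 10675582 counts, and 3 counts, used as a floor, corresponded to 0.281 to 0.386 CPM. The TMM factors, which correct for differences in composition between libraries, were 0.938 to 0.967 in H4 and 1.003 to 1.031 elsewhere. Fold changes from edgeR use these factors, whereas the rule and the CPM values below use library totals alone.

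None of the 63 genes (0 of 63) is among the 42 genes with a name beside their identifier in the study's main text or primer table. All 63 do appear by identifier in the study's expression clusters made from these libraries, and 8 in its list of genes related negatively to firmness. The clusters hold the genes that the study called differentially expressed, which favours genes picked for separated stages. The share of all genes in either list was not counted here, so 8 cannot be read as many or few. These lists rest on the same libraries and are no independent evidence, and they give no gene names. Neither the identifiers of the 63 nor their accessions matched the reference annotation used here. They are therefore given by identifier, as PCP numbers of the pear genome annotation, without a name or a role. A pair of them, PCP024198 and PCP018540, carry the same closest database accession. Counts do not keep the strand, and genes with near-identical copies or overlapping antisense genes may share reads, so that the values of this pair are uncertain in that respect.

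At H1 the 63 stage means ranged from 0.521 to 540.1 CPM with a median of 15.7 CPM. The median was 21.9 CPM at H2, 30.8 CPM at H3 and 49.5 CPM at H4, where the range was 4.72 to 1753 CPM. The mean at H4 was 1.79 to 18.5 times that at H1, with a median of 3.11 times. It was at least 2 times the H1 mean in 60 genes, at least 3 times in 33, at least 5 times in 10 and at least 10 times in 5. Most of the group thus rose about 2- to 5-fold across the 27 days, and a small tail rose more steeply.

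Replicates lay close together. The rule favours this, since it asks for complete separation of neighbouring stages, so the spreads and gaps below describe the selection. The coefficient of variation within a stage had medians of 8.99% at H1, 6.73% at H2, 7.29% at H3 and 8.44% at H4, and the widest value was 55.2%, at H1. The lowest library of a later stage was at the median 1.201 times the highest of the stage before at H1–H2, 1.18 times at H2–H3 and 1.30 times at H3–H4. The smallest of these gaps was 1.006, 1.008 and 1.002 times, so that for some genes the separation rests on a margin under 1%. The lowest count in any library ranged from 2 to 4418, with a median of 120.

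Genes with low counts showed the steeper ratios from H1 to H4 and at H1–H2, and less clearly so at H3–H4. The demand for complete separation bears on this comparison, since low counts scatter more and pass it more easily with larger steps. In the 21 genes with the lowest H4 means (4.72 to 27.3 CPM) the median ratio of H4 to H1 was 3.63, compared with 2.86 in the 21 of middle level (28.8 to 78.2 CPM) and 2.82 in the 21 of highest level (79.8 to 1753 CPM). At H1–H2 the median ratio was 1.69 in the lowest of these groups, 1.38 in the middle and 1.32 in the highest. It was 1.52, 1.31 and 1.32 at H2–H3, and 1.54, 1.56 and 1.44 at H3–H4. CPM is not corrected for gene length, so that the groups rank counts and not transcripts.

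The 3 genes with the highest H4 means were PCP002576, PCP012921 and PCP014003. PCP002576 measured 569.9, 480.1 and 570.4 CPM in the H1 libraries, 842, 817 and 816 CPM at H2, 1056, 997 and 1000.1 CPM at H3, and 1533, 1925 and 1802 CPM at H4. As the rule requires, no stage overlapped the next, and at H4 replicate 1 was the lowest library. Stage means were 540.1 ± 52.0, 825 ± 14.7, 1018 ± 33.3 and 1753 ± 200.3 CPM (SD, n = 3). On the log2 scale, edgeR gave 0.61 (SE 0.08, adjusted p = 0.00095) for H1–H2, 0.30 (SE 0.08, adjusted p = 0.057) for H2–H3 and 0.88 (SE 0.08, adjusted p = 2e-05) for H3–H4. The middle step thus did not pass the threshold of 0.05, and it passed in 6 of the 18 alternative settings.

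PCP012921 gained most in the last step. It measured 309, 329 and 289 CPM at H1, 398, 376 and 389 CPM at H2, 536, 551 and 542 CPM at H3, and 956, 1314 and 1251 CPM at H4, where replicate 1 was again the lowest. Stage means were 309 ± 19.9, 388 ± 10.7, 543 ± 7.43 and 1174 ± 191 CPM (SD, n = 3). The log2 fold change was 0.32 (SE 0.10, adjusted p = 0.084, edgeR) at H1–H2, 0.49 (SE 0.10, adjusted p = 0.014) at H2–H3 and 1.21 (SE 0.10, adjusted p = 7e-06) at H3–H4. The call at H2–H3 was lost without H2 replicate 2 or H2 replicate 3. The last step held 57.8% of the whole log2 rise of this gene.

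PCP014003 rose in nearly equal steps and with the tightest replicates of the 3. It measured 208, 205 and 227 CPM at H1, 321, 330.1 and 325 CPM at H2, 469.7, 459 and 459 CPM at H3, and 690.5, 668 and 709 CPM at H4. The libraries of a stage stood close together and far from those of the next stage. Stage means were 213 ± 11.8, 326 ± 4.42, 462 ± 6.30 and 689 ± 20.2 CPM (SD, n = 3), that is 1.53, 1.42 and 1.49 times from one to the next. The log2 fold changes were 0.60, 0.51 and 0.67, each with SE 0.04 and the largest adjusted p at 3.7e-05 (edgeR), and all 3 calls held in every one of the 18 alternative settings.

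**Figure D1:**
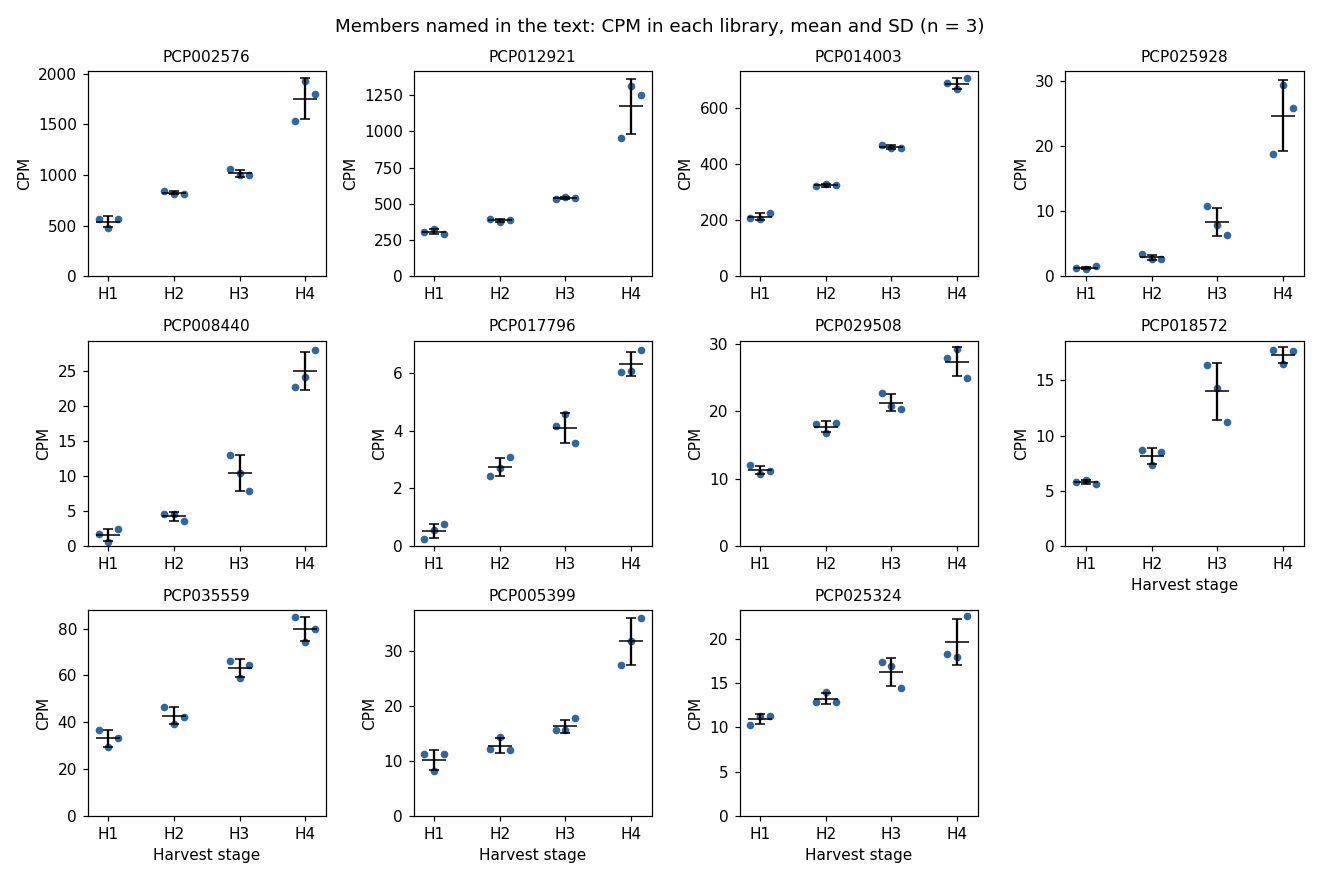
CPM in each library (points) with the mean ± SD of 3 libraries for 11 of the genes, against harvest stage, each panel on its own axis from 0. PCP014003 climbs in nearly equal steps from 213 to 689 CPM, PCP017796 has its largest ratio between H1 and H2, PCP018572 between H2 and H3, and PCP012921 between H3 and H4.

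The largest ratios of H4 to H1 belonged to 3 genes with few counts at H1. PCP025928 measured 1.29, 1.195 and 1.53 CPM at H1, 3.42, 2.70 and 2.61 CPM at H2, 10.8, 7.96 and 6.41 CPM at H3, and 18.8, 29.5 and 25.9 CPM at H4, against counts of 10, 11 and 12 at H1. Its means of 1.34 ± 0.172, 2.91 ± 0.440, 8.38 ± 2.20 and 24.7 ± 5.46 CPM (SD, n = 3) made a total ratio of 18.5. The log2 fold change was 1.11 (SE 0.30, adjusted p = 0.044, edgeR) at H1–H2, 1.52 (SE 0.24, adjusted p = 0.0027) at H2–H3 and 1.66 (SE 0.20, adjusted p = 0.00013) at H3–H4. Its H1–H2 call was lost in 10 of the 18 alternative settings, among them those without any 1 of the H1 or H2 libraries, whereas the later calls held in all of them. PCP025928 and PCP008440 were the 2 genes that at least doubled at every step.

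PCP008440 measured 1.80, 0.652 and 2.42 CPM at H1 (counts of 14, 6 and 19), 4.64, 4.63 and 3.56 CPM at H2, 12.96, 10.5 and 7.84 CPM at H3, and 22.7, 24.2 and 28.0 CPM at H4. The H1 libraries differed among themselves by more than 3-fold and, as the rule requires, lay below every H2 library. Means of 1.62 ± 0.896, 4.28 ± 0.617, 10.4 ± 2.56 and 24.97 ± 2.73 CPM (SD, n = 3) gave steps of 2.63, 2.44 and 2.39 times and a total of 15.4 times. The log2 fold change from H1 to H4 was 4.05 (SE 0.30, adjusted p = 6.1e-07, edgeR) and lay between 3.65 and 4.45 when each library was left out. The H1–H2 call (1.42, SE 0.34, adjusted p = 0.025) was lost without H1 replicate 1 or 2 or H2 replicate 1 or 2, and the H2–H3 call (1.29, SE 0.27, adjusted p = 0.015) without H2 replicate 3 or H3 replicate 1.

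PCP017796 had the most uneven rise of the group, with 66.6% of its log2 gain between H1 and H2. It measured 0.257, 0.543 and 0.764 CPM at H1, which are counts of 2, 5 and 6, then 2.44, 2.70 and 3.09 CPM at H2, 4.16, 4.57 and 3.56 CPM at H3, and 6.05, 6.09 and 6.80 CPM at H4. One H1 library was therefore under the floor of 3 counts, and every H2 library was above all H1 libraries, as the rule requires. The log2 fold change was 2.35 (SE 0.30, adjusted p = 0.00055, edgeR) at H1–H2, 0.58 (SE 0.23, adjusted p = 0.21) at H2–H3 and 0.71 (SE 0.22, adjusted p = 0.035) at H3–H4. The last of these calls was lost in 7 of the 18 alternative settings, including each of those without H3 replicate 1 or 3 or any H4 replicate.

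Counting the largest ratio of stage means per gene, the largest step was H3–H4 in 33 genes, H1–H2 in 18 and H2–H3 in 12. The median ratio was 1.46 (1.21 to 5.26) at H1–H2, 1.35 (1.201 to 2.88) at H2–H3 and 1.51 (1.21 to 2.95) at H3–H4. Expressed as shares of the log2 rise from H1 to H4, the medians were 33.4%, 29.98% and 36.4%. In 29 genes every step took between 25 and 45% of the rise, and in 30 the middle step was the smallest. Each step exceeded the one before in 16 genes and each fell short of the one before in 5. In the other 34 genes at least 1 step lay outside that range of shares.

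**Figure D2:**
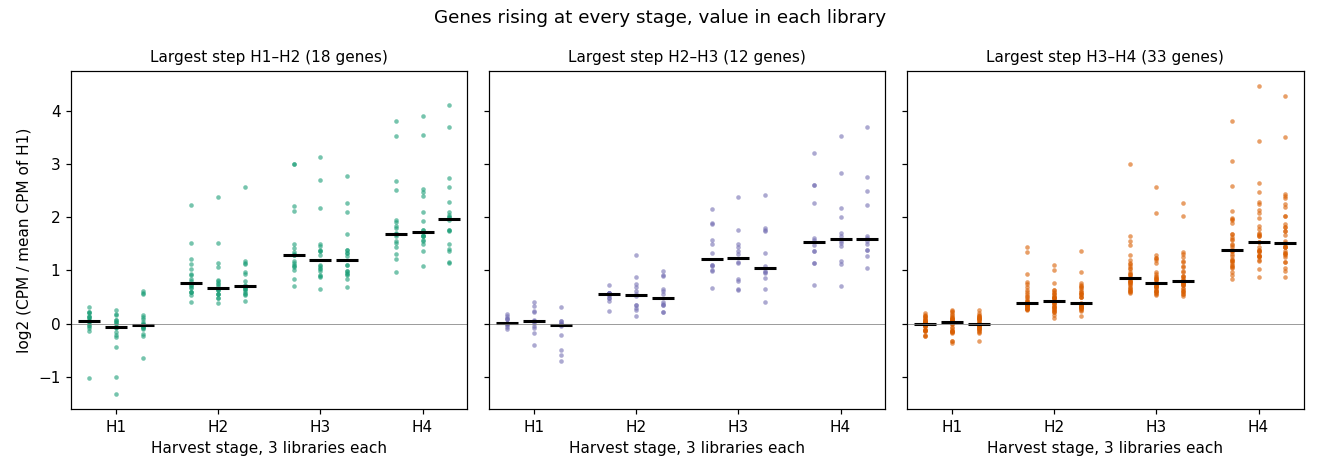
log2 of CPM over the H1 mean of the gene, for each gene (points) in each of the 12 libraries, with the median of the genes in a library as a black bar, split into the 18 genes with their largest step at H1–H2, the 12 at H2–H3 and the 33 at H3–H4. The bars of neighbouring stages stand apart in all 3 panels, which the rule brings about. The spread between genes widens toward H4, which dividing each gene by its own H1 mean favours.

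The middle step had the smallest median ratio and spanned the longest time. Per day, the median log2 rise was 0.0777 at H1–H2, 0.0335 at H2–H3 and 0.0849 at H3–H4, and H2–H3 was the slowest step per day in 58 of the 63 genes. In edgeR, a contrast of the middle step per day with the mean of both outer steps per day, chosen after seeing the data, was negative in 63 of 63 genes, with a median of −0.05 log2 units per day. It passed the threshold in 19 of them, whereas 2.49% of all genes tested were called in that direction, and it was above the outer steps in 0 genes (2.66% of all genes tested). The count fell to 9, 11 and 10 without H2 replicate 1, 2 or 3 and to 11 and 9 without H3 replicate 2 or 3. A rule that asks each step for at least 1.2 times regardless of its length bears on this contrast.

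Among the genes with a large middle step, PCP018572 held 49.1% of its rise there and PCP035559 44.5%. PCP018572 measured 5.79, 5.98 and 5.601 CPM at H1, 8.66, 7.33 and 8.55 CPM at H2, 16.4, 14.3 and 11.3 CPM at H3, and 17.7, 16.5 and 17.7 CPM at H4. The highest H3 library came to within 1% of the lowest H4 library. The log2 fold change was 0.77 (SE 0.14, adjusted p = 0.0055, edgeR) at H2–H3 and 0.39 (SE 0.13, adjusted p = 0.047) at H3–H4, and the latter call was lost in 13 of the 18 alternative settings, including all 3 without an H4 library. At H1–H2 it was 0.49 (SE 0.15, adjusted p = 0.066).

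PCP035559 was more abundant and even. It measured 36.6, 29.3 and 33.4 CPM at H1, 46.5, 39.3 and 42.3 CPM at H2, 66.3, 58.9 and 64.2 CPM at H3, and 84.9, 74.4 and 80.0 CPM at H4, with replicate 2 the lowest at every stage. Its log2 fold changes were 0.36 (SE 0.09, adjusted p = 0.026, edgeR), 0.56 (SE 0.08, adjusted p = 0.0021) and 0.43 (SE 0.08, adjusted p = 0.0027). The first of these calls was lost without H1 replicate 2 or 3 or H2 replicate 1 or 3.

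PCP029508, with 50.7% of its rise at H1–H2, measured 11.96, 10.8 and 11.2 CPM at H1, 18.1, 16.7 and 18.3 CPM at H2, 22.6, 20.8 and 20.3 CPM at H3, and 27.8, 29.2 and 24.97 CPM at H4. The log2 fold change was 0.64 (SE 0.09, adjusted p = 0.0013, edgeR) at H1–H2, 0.26 (SE 0.09, adjusted p = 0.12) at H2–H3 and 0.46 (SE 0.08, adjusted p = 0.0022) at H3–H4. At the opposite end, PCP005399 held 58.5% of its rise at H3–H4. It measured 11.2, 8.15 and 11.2 CPM at H1, 12.1, 14.3 and 11.997 CPM at H2, 15.7, 15.6 and 17.7 CPM at H3, and 27.4, 31.8 and 35.9 CPM at H4. Its only step past the threshold was H3–H4, at 1.05 on the log2 scale (SE 0.13, adjusted p = 0.00012, edgeR), after 0.33 (adjusted p = 0.22) and 0.35 (adjusted p = 0.2).

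The step ratio of 1.2 set the border of the group. PCP029508 was the gene nearest inside it, with a smallest step of 1.201, followed by PCP025324. PCP025324 also had the smallest rise from H1 to H4 (1.79 times): it measured 10.3, 11.3 and 11.3 CPM at H1, 12.9, 14.02 and 12.8 CPM at H2, 17.4, 17.0 and 14.5 CPM at H3, and 18.3, 18.0 and 22.6 CPM at H4. Just outside were PCP008350, with means of 19.995, 23.98, 30.9 and 59.98 CPM, and PCP041645, with means of 128, 154, 217 and 325 CPM, which missed the ratio at H1–H2 only. Their means lay within the range of those of the 63 at every stage. In edgeR, PCP041645 was called higher at all 3 steps (adjusted p = 0.023, 0.00044 and 9.5e-06), although it was left out. Its H1–H2 call was lost in 4 of the 18 alternative settings. PCP008350 was called at H3–H4 only (adjusted p = 5.6e-05).

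All 63 genes were higher at H4 than at H1 in edgeR's quasi-likelihood test with Benjamini-Hochberg adjustment, where 18.1% of all genes tested were called higher. Step by step, 43 of the 63 were called higher at H1–H2 (3.94% of all genes tested), 37 at H2–H3 (2.98%) and 59 at H3–H4 (11%). None was called lower at any step, at an adjusted or an unadjusted p of 0.05 (0 genes in both cases). The rule used these same contrasts, so that the shares of all genes are given for scale only. Without H2 replicate 1 or 3 the count at H1–H2 was 26 or 27, and at H2–H3 it was 24, 21 and 19 without H2 replicate 1, 2 or 3 and 21 without H3 replicate 1.

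Over the 63 genes, the log2 fold change had a median of 0.54 at H1–H2, 0.43 at H2–H3 and 0.69 at H3–H4, and 1.72 (0.92 to 4.29) from H1 to H4, against medians within 0.01 of 0 over all genes tested. The 24 genes past the surge limit had medians of 1.11, 0.92 and 3.03 for the 3 steps. The mirrored rule, with every stage lower than the one before, found 84 genes, whose medians were −0.50, −0.55 and −0.77. Its limit left out genes whose lowest H1 library was at least 2 times the highest of H2 to H4. It thus bears on H1–H2, while the surge limit of the 63 bears on H3–H4. Step sizes and numbers of both groups are therefore not like for like. Rising and falling genes numbered 63 and 84 with library totals and 77 and 81 with TMM factors.

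The per-step tests called 25 of the 63 genes at all 3 steps, where 0.246% of all genes tested (57 genes) were called. Of these 57 genes, 11 were past the surge limit and 21 met neither condition. The 25 genes had H4 means of 20.5 to 689 CPM with a median of 113 CPM, and PCP014003 was the most abundant of them. Both H1–H2 and H3–H4 were called, but not the middle step, in 17 genes, and H2–H3 and H3–H4 in 11. H3–H4 alone was called in 6 genes. The count of 25 was 16 without H1 replicate 1, 8, 11 and 9 without H2 replicate 1, 2 or 3, 14 without H3 replicate 1 and 16 without H3 replicate 2.

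In 4 genes the calls took other forms, and these were named after their values were seen. PCP021406 was called at H1–H2 and H2–H3 but not at H3–H4 (log2 fold change 0.36, SE 0.14, adjusted p = 0.09, edgeR). PCP018540, PCP029741 and PCP010701 were called at no single step. They had H4 means of 4.72, 8.35 and 13.2 CPM. Their log2 fold changes from H1 to H4 were 2.36 (adjusted p = 3.3e-05), 1.90 (adjusted p = 0.00028) and 1.51 (adjusted p = 8.3e-05) in edgeR. Each was thus called across the window although none of its 3 parts passed alone, in a direction that the rule had set.

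The pair with a shared accession differed in level. PCP024198 measured 19.7 ± 2.93, 25.7 ± 1.74, 37.7 ± 6.31 and 56.3 ± 5.94 CPM at the 4 stages, and PCP018540 measured 0.953 ± 0.287, 1.68 ± 0.195, 3.06 ± 0.566 and 4.72 ± 1.02 CPM (SD, n = 3). The ratio of H4 to H1 was 2.86 in the first and 4.95 in the second, the latter from counts of 8, 11 and 5 at H1. In H4 both genes were highest in replicate 1, at 62.9 CPM for PCP024198 and 5.84 CPM for PCP018540, and shared reads between them were not tested.

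The first and the last step both spanned 7 days, so that their sizes can be set side by side. The difference, H3–H4 minus H1–H2 in the same edgeR model, had a median of 0.16 log2 units over the 63 genes and was positive in 48 of them. With library totals in place of TMM factors, the ratio of stage means was larger in the last step in 37. The last step was called larger in 11 genes (5.16% of all genes tested) and smaller in 2 (5.47%). The count of 11 was 7 without H2 replicate 2, 6 and 7 without H3 replicate 2 or 3, 7 without H4 replicate 2, and 6 with total-count scaling. The surge limit, which removes genes with a burst at H4, bears on this contrast.

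In the 11 genes with a larger last step the log2 fold change lay between 0.26 and 0.61 at H1–H2 and between 0.73 and 1.31 at H3–H4. PCP012921 had the largest difference, 0.89 log2 units (SE 0.14, adjusted p = 0.0018, edgeR), and its call held in all 18 alternative settings. PCP005399 had a difference of 0.72 (SE 0.19, adjusted p = 0.031), which was not called in 9 of the 18, among them those without H4 replicate 2 or 3. The 2 genes with a smaller last step were PCP017796 (−1.64, SE 0.37, adjusted p = 0.014) and PCP010900 (−0.67, SE 0.13, adjusted p = 0.0048), the latter named after its values were seen. PCP010900 measured 26.997, 20.3 and 23.7 CPM at H1, 55.1, 52.0 and 46.6 CPM at H2, 109.6, 107 and 102 CPM at H3, and 135, 131 and 141 CPM at H4. Its level more than doubled at each of the first 2 steps and then gained 0.44 on the log2 scale (SE 0.08, adjusted p = 0.0024), and its smaller last step was called in all 18 settings.

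**Figure D3:**
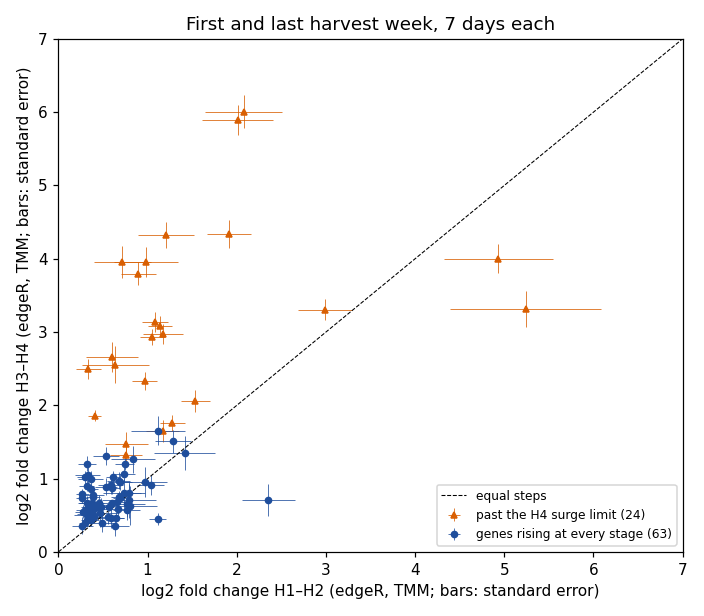
log2 fold change of the first 7-day step (H1–H2, horizontal) against the last (H3–H4, vertical) from edgeR with standard errors as bars, for the 63 genes (circles) and the 24 genes past the surge limit (triangles), with a dashed line where both steps are equal. Among the 63 genes the difference between both steps was called in 13, with PCP012921 above the line at 0.32 and 1.21 and PCP017796 farthest to the right at 2.35 and 0.71, and most of the 24 lie above the line.

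Most of the 63 genes deviated in the same direction in each library of the last stage. For each library, the deviation of a gene from its stage mean was taken on log2(CPM + 1). The deviations of a gene within a stage cancel out, so that 1 low library brings higher values in the others. The libraries of a stage are therefore not separate observations here. In H4 replicate 1 the median was −0.10 and 51 of the 63 genes were below their stage mean, while the median over all genes tested was 0.01 and 45.5% of them were below. In H4 replicate 2 the median was 0.03 with 41 genes above, and in H4 replicate 3 it was 0.06 with 48 above. H3 replicate 1 had a median of 0.05 with 44 genes above, whereas 60 of the 84 falling genes were below their stage mean there. In the other 8 libraries the medians were between −0.02 and 0.03. These are descriptions, and how far along in maturity the fruits of each replicate were was not tested.

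The genes did not all vary together, however. Over the 12 libraries, the pairwise correlation of these deviations among the 63 genes had a median r of 0.16 and ranged from −0.85 to 0.92. The deviations share library totals and stage means, and low counts add sampling noise to them. Without H4 replicate 1 the median log2 fold change of H3–H4 was 0.74 in place of 0.69.

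**Figure D4:**
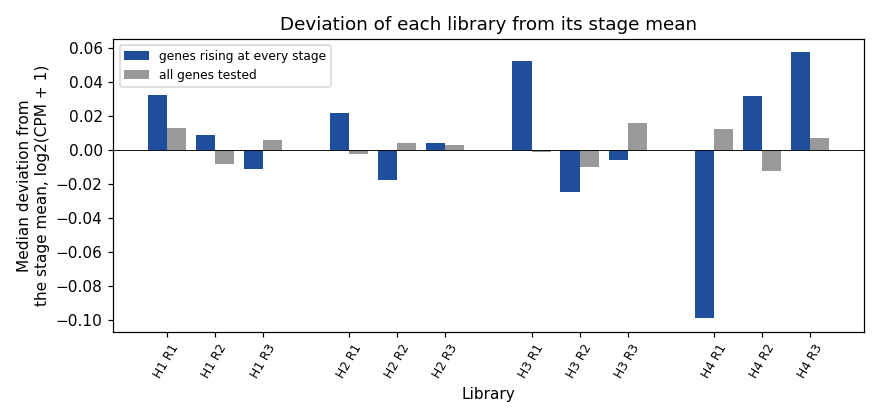
Median deviation from the stage mean on log2(CPM + 1) in each of the 12 libraries, for the 63 genes and for all genes tested (bars from 0). H4 replicate 1 stands lowest for the 63 genes at −0.10, while all genes tested stay near 0 in every library.

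Which genes the rule picked depended on its settings. With CPM scaled by TMM factors 77 genes met it, of which 61 were among the 63 (96.8% of the 63 and 79.2% of the 77), and with median-ratio size factors 72 met it, of which 58 were among them. The rule was met under all 3 scalings by 58 genes. Lowering the step ratio to 1.1 gave 168 genes and raising it to 1.5 gave 10. When each library was left out in turn, 62 to 79 genes met the rule, and 39 of the 63 met it in all 12 of these runs. The lowest number of shared genes was 54, without H3 replicate 1.

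**Figure D5:**
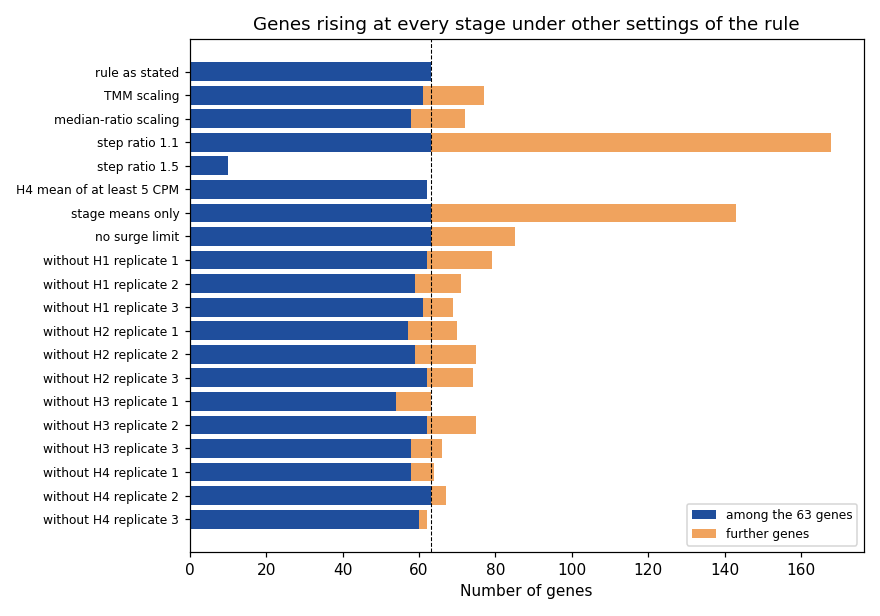
Number of genes that met the rule (horizontal axis) under each setting (vertical axis), with genes among the 63 in blue and further genes in orange, and the dashed line at 63. The step ratio of 1.1 gives 168 genes and stage means without separation 143, while leaving out 1 library gives 62 to 79.

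The genes that the study names for ripening gave the context in which the 63 stand, and none of them belongs to the group. Of 41 such genes, 37 passed the filter on low counts, 25 of these were higher and 11 lower at H4 than at H1 (edgeR). All tested genes of ethylene biosynthesis (4 of 4), ethylene perception (2 of 2), ethylene response factors (4 of 4) and volatiles (4 of 4) were higher, while 5 of 9 auxin genes were higher and 3 lower, 4 of 8 cell wall genes were higher and 4 lower, and 2 of 6 other transcription factors were higher and 4 lower. Over all genes tested, 18.1% were called higher and 16.4% lower. The study chose these genes in view of the same samples, so that the counts are not independent evidence of their direction. Only 2 of them were called higher at all 3 steps, polygalacturonase and alcohol acyltransferase.

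In 3 of these genes every step and the separation of stages met the rule, and all 3 were past the surge limit. Polygalacturonase (PG, PCP006771), which breaks down pectin of the cell wall, had stage means of 1.19, 10.01, 86.4 and 801 CPM, that is 8.39, 8.63 and 9.27 times from one to the next. Alcohol acyltransferase (AAT, PCP024687), which makes the esters of fruit aroma, had means of 28.4, 82.6, 136 and 531 CPM. Hydroperoxide lyase (HPL, PCP012365), which yields short volatile aldehydes, had means of 5.35, 12.96, 17.02 and 53.9 CPM. All 3 thus had an H4 library minimum above 2 times the highest earlier library (2.53 to 7.41 times), whereas this ratio lay between 1.002 and 1.965 in the 63. The rule sets this contrast, since the surge limit divides the genes at 2 times.

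Other genes named by the study came near the rule and missed it at a step. An ACC oxidase (PCP009685), which makes ethylene, had means of 0.316, 1.43, 2.35 and 3.77 CPM, but its H3 and H4 libraries overlapped. A MADS box transcription factor (PCP007024) had means of 11.8, 16.4, 21.2 and 24.2 CPM and an auxin-induced protein (PCP019182) 17.0, 23.4, 30.7 and 35.8 CPM. Both missed the ratio at H3–H4, with 1.14 and 1.16 times, and their H3 and H4 libraries overlapped. An Aux/IAA gene (PCP003908), whose family represses auxin responses, had 54.8, 55.5, 76.4 and 94.8 CPM. It missed the ratio at H1–H2, with 1.01 times, and its H1 and H2 libraries overlapped.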

How the data were processed

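RNA-seq of pear flesh was measured in 12 single-end libraries, 4 harvesting stages with 3 replicates, and samples were grouped by the stage in their labels. The authors aligned reads with HISAT2, quantified them with StringTie and used DESeq2. Versions are not given in the sources used here, and neither is the genome build. The deposited table is named for FPKM but holds whole numbers only, and was read as unnormalized counts of reads per gene. The 4 deposited stage columns, a signal that equals the mean of the 3 libraries, were not used. No per-library column was left out (0). The labels and the methods differ in library kit, sequencer and read length.

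CPM was computed as count / column total, without a correction for gene length. Counts of 23155 genes (1 CPM in at least 3 libraries) were analysed with edgeR 4.0.16 in R 4.3.3 (TMM, quasi-likelihood test, all 12 libraries, 1 term per stage), with Benjamini-Hochberg adjustment within each contrast and a threshold of 0.05. Standard errors are approximate, taken as the log2 fold change over the root of the F statistic. Figures were drawn in Python 3.11.15 with matplotlib 3.10.9. Both edgeR and DESeq2 were tested on simulated data. Alternatives were total-count and median-ratio scaling, filters of 0 and 5 CPM, DESeq2 1.42.0, the replicate number as a block, each library left out, and other settings of the rule. Counting error limits the precision of genes with few counts.

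The genes, lists and tests were chosen with earlier results of these data known. Genes named in the text are the 3 with the highest H4 mean, the 3 with the largest ratio of H4 to H1, the 2 with the largest share of the rise in each step, the 2 nearest on either side of the step ratio, and genes named by the study. Further genes, a pair with a shared accession (PCP024198, PCP018540) and PCP021406, PCP029741, PCP010701 and PCP010900, were named after their values were seen. The rule also listed 6 identifiers to leave out: 4 did not meet it and 2 were past the surge limit. The contrast of steps per day was added after seeing the data.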

Additional observations from a re-analysis of the deposited data

How the results depend on the processing

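The rule gave 168 genes with a step ratio of 1.1, 10 with 1.5 and 143 with stage means only, and 62 to 79 without 1 library. With total-count scaling, 6 in place of 11 genes had a larger last step and the median H3–H4 log2 fold change was 0.59 in place of 0.69, while the median over all genes tested moved from −0.00376 to −0.0958. Without 1 library, the genes called were 26 to 45 at H1–H2, 19 to 42 at H2–H3, 51 to 61 at H3–H4, 63 from H1 to H4, 8 to 31 at all 3 steps, 6 to 13 with a larger last step and 9 to 23 with a slower middle step per day, and the median log2 fold changes were 0.48 to 0.57 at H1–H2, 0.41 to 0.50 at H2–H3 and 0.65 to 0.74 at H3–H4. DESeq2 called 40, 38 and 54 genes at the 3 steps and 29 at all of them. The filter of 5 CPM tested 62 of the 63 genes. The libraries were not treated as pairs, since no source says what a replicate number shares. Nor did every pair of same-numbered libraries correlate above 0.1 in its deviations (−0.0412 to 0.243, median 0.0377). For different numbers the correlations were −0.173 to 0.0867, with a median of −0.0127. In 9 of 12 libraries the mean correlation with same-numbered libraries exceeded that with different-numbered ones of other stages. That is a hint from the data, not from the design. With a block for the replicate number, 37, 35 and 59 genes were called at the 3 steps, 20 at all of them and 63 from H1 to H4. Of 33 step tests of the 11 named genes, 22 had the same outcome, called or not called, in all 18 alternative settings. None (0) changed direction, but the rule had set that direction. Few counts at H1 limit the precision of the ratios of such genes.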
